A study of Rattus norvegicus with 4 samples.

Results

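The Wnt pathway genes of OLN93 cells, an immortalized rat oligodendroglial line, were examined after loss of the transcription factor Sox10. Members were all gene symbols of Wnt ligands and Fzd, Dkk, Sfrp and Rspo families that carry a number, the Axin and Tcf7 genes, and Lrp5, Lrp6, Lef1, Apc, Apc2, Dvl1, Dvl2, Dvl3, Porcn, Wls, Rnf43 and Znrf3. This gave 58 genes, of which 53 had a row among the 17327 gene symbols of the count files. The other 5, Fzd7, Rspo4, Tcf7, Wnt2 and Znrf3, were listed only in the authors' table of means and thus had no values per library. The control group consisted of 2 libraries of Sox10-positive cells, labelled as biological replicates 1 and 2. The Sox10-deficient group consisted of clones A and B, in which Sox10 had been inactivated by CRISPR/Cas9 with different guide RNAs. All cells were kept in serum-containing medium. The treatment label names editing of Sox10 for all 4 samples, controls included, whereas the genotype label calls the controls Sox10-positive, and whether they had gone through editing is not stated further. As each clone is a single isolate, and the study's methods describe the controls as clones too, differences between isolates and loss of Sox10 cannot be told apart.

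In the canonical Wnt pathway, secreted Wnt proteins bind Frizzled receptors and the co-receptors Lrp5 or Lrp6. This recruits Dishevelled proteins and stops a complex of Axin and Apc from marking β-catenin for degradation, so that β-catenin can activate genes together with Lef1 and Tcf7 family proteins. In the oligodendroglial lineage the pathway is known as a regulator of the timing of differentiation, and Wnt7a from oligodendrocyte precursor cells (OPCs) is known for its role in their contacts with vessels. The study counts Wnt7a and Apc2 among its candidate Sox10 target genes in OPCs, so that their place here was known beforehand.

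Deposited counts ranged from 60951 to 104017 per library, and from 7319 to 8280 gene symbols had at least 1 count. The study reports far more reads per library than this, so that the deposited counts do not show its sequencing depth. Sox10 had 28 and 64 counts in controls 1 and 2, whereas clone A had 0 and clone B 14, with a log2 fold change of -2.74 ± 0.62 (estimate ± standard error, adjusted p = 0.0172 in edgeR's quasi-likelihood test), but the call was lost without clone A (-1.75, adjusted p = 0.0689), without control 2 (-2.49, adjusted p = 0.546) and with DESeq2 (adjusted p above 0.05). Of 8 OPC markers, 5 could be tested, and Sox10 was the marker that passed. The OPC markers summed to between 2000 and 2212 CPM (counts normalized to a common library size) for the control libraries and to 1443 (clone A) and 1630 CPM (clone B), but without Sox10 the sums overlapped, with 1763 and 1382 CPM against 1443 and 1471 CPM. Within this list Olig1, with 12 and 1 counts against 0 and 0, was at 0 in both clones, whereas Cspg4 had 256 and 300 CPM in controls 1 and 2 against 669 and 407 CPM for the clones (adjusted p = 0.197 in edgeR's quasi-likelihood test), and Pdgfra had a log2 fold change of 0.22. Of the markers of myelinating oligodendrocytes, 6 of 8 stayed at 3 counts or fewer in every library, among them Mbp and Mag. The list summed to 1186 and 850 CPM for the control libraries, whereas the clones gave 589 (A) and 351 CPM (B), and these sums rested on Cnp and Mog. Mog had a mean of 0 in the authors' table described below, as had Olig2, so that their counts are not given as expression, and without Mog the sums were 994 and 676 CPM against 438 and 226 CPM. Markers of Schwann cells and neural crest summed to 1346 and 1353 CPM for the control libraries, whereas the clones gave 577 (A) and 385 CPM (B). In that list Ngfr had 37 and 62 counts against 0 in both clones, and Sox2 had 192 and 222 CPM against 288 and 272 CPM (log2 fold change 0.42). Of the other markers, S100b in the astrocyte list fell, with 26 and 22 counts in controls 1 and 2 against 2 and 1 for the clones, whereas Gfap had at most 1 count. All 5 neuronal markers stayed at 3 counts or fewer, as did 4 of 5 for microglia, 3 of 4 for endothelium and 3 of 5 for fibroblasts and mural cells. Their part in the results below was not tested.

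The promoters of Lef1, Axin2 and Apc2 are shown for the following reasons. Lef1 had the largest fitted decrease among the tested members, Axin2 is a feedback gene of the pathway, and Apc2 is a candidate of the study. Given are the 250 bases before the RefSeq start in assembly GRCr8 (the counts were made on another build), written 5′ to 3′ on the strand of the gene. The windows are chr2:222340463-222340712, plus strand, for Lef1, chr10:94398535-94398784, plus strand, for Axin2, and chr7:10059346-10059595, minus strand, for Apc2. Capitals mark matches on either strand to CTTTGAT or CTTTGAA, as bound by Lef1 and Tcf7 family proteins, or to ACAAAG or ACAATG, as bound by Sox proteins. None of these 4 strings contains another on either strand.

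Lef1: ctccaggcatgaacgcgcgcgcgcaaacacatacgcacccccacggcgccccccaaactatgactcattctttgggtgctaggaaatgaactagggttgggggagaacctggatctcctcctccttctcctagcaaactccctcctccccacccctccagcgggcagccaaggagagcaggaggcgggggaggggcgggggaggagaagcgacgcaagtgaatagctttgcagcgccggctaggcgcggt

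Axin2: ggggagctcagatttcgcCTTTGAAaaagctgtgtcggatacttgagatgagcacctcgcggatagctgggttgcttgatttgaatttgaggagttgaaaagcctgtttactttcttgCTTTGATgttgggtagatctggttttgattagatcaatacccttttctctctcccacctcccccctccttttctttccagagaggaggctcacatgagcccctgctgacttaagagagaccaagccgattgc

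Apc2: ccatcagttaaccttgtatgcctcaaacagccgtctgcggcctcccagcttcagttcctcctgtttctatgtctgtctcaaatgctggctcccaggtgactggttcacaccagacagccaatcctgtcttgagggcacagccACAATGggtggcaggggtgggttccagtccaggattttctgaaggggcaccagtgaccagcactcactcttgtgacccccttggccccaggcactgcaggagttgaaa

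The Axin2 window held 1 match each to CTTTGAT and CTTTGAA. The Apc2 window held 1 match to ACAATG and the Lef1 window held no match. Among the 33469 windows of RefSeq, 7.58% held CTTTGAT or CTTTGAA and 25.3% held ACAAAG or ACAATG. Among the 41 members with an entry, these were 3 and 8. A match describes the letters of the window and shows no binding, and a missing match says nothing about binding elsewhere.

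Most Wnt ligands were not seen in the deposited counts. Of 18 ligand genes with a row, 12 had 0 counts in all 4 libraries, namely Wnt1, Wnt3a, Wnt6, Wnt7a, Wnt7b, Wnt8a, Wnt8b, Wnt9b, Wnt10a, Wnt10b, Wnt11 and Wnt16. Zero counts allow a level of up to 29.0 to 48.1 CPM per library, as given by 3 counts and covering counting error only. How many counts were to be anticipated could be read from the authors' table of mean normalized counts over all libraries, a number without error or n. Across the 5353 genes whose mean reached 500 there, a library held a median of 0.384% of that mean. Wnt7a, listed as ENSRNOG00000048782, had a mean of 41, which at this ratio corresponds to 0.63 counts over all 4 libraries. A difference of Wnt7a between controls and clones was therefore not detectable in the deposited counts. Since these are far fewer than the reads per library that the study reports, they do not bear on its own call of Wnt7a. Wnt9a had a mean of 295 and 1 count in all, in clone A, where 4.53 were to be anticipated. Wnt5a, a ligand known for signalling without β-catenin, had a mean of 102 and 0, 0 and 0 counts in control 1, control 2 and clone A, and 3 counts in clone B. Wnt5b had 1 count, in clone A, and a mean of 11. Wnt3 had 3 counts in clone A, 1 in clone B and none elsewhere, and Wnt4 had 1 count per control and 2 in clone A, although both had a mean of 0. Of the 19 ligand genes of the authors' table, 12 had a mean of 0, and 15 a mean below 10.

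The ligand with the most counts was Wnt2b, with 4 and 8 counts in controls 1 and 2, followed by 4 for clone A and 15 for clone B. This corresponded to 64.1, 77.3, 46.2 and 170 CPM, so that the groups overlapped. The authors' mean for Wnt2b was only 1. Its deposited counts were therefore 2018 times those anticipated from the median gene, and are not given here as expression of Wnt2b. The nearest coding gene in GRCr8 is St7l, on the opposite strand, which does not overlap Wnt2b and had 3 to 7 counts per library. The libraries were made with a stranded kit. Since it is not stated how strand entered the counting, reads of the opposite strand cannot be told apart from reads of Wnt2b. Together, 7 members had more than 10 times the anticipated counts or counts despite a mean of 0. These were Dkk4, Fzd9, Rnf43, Sfrp5, Wnt2b, Wnt3 and Wnt4, and they held 158 counts over the 4 libraries. The cause was not tested. Dvl2, Fzd5 and Fzd10 had no mean in the authors' table, so that this check could not be made for them.

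**Figure D1:**
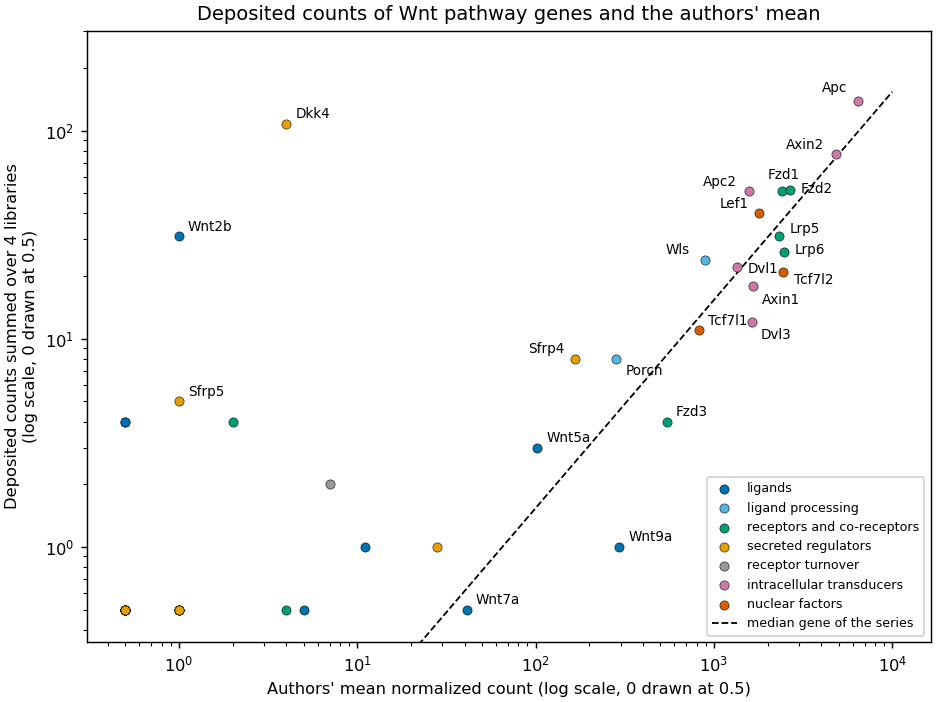
Deposited counts summed over 4 libraries (y axis, log scale) against the authors' mean normalized count (x axis, log scale) for each member with both values. Points are genes coloured by role, and the dashed line shows the median gene of the series (0.384% of the mean per library). Lef1, Axin2, Apc, Fzd1, Fzd2, Lrp5 and Lrp6 lie near the line, whereas Dkk4 and Wnt2b, with 108 and 31 counts, lie far above it.

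Among the genes for the handling of ligands, Wls, which carries Wnt proteins to the cell surface, had 3 and 13 counts among the control libraries against 5 for clone A and 3 for clone B. Porcn, which attaches a fatty acid to Wnt proteins, had 1 and 1 count in controls 1 and 2, and then 0 (clone A) and 6 (clone B). The groups overlapped for both genes, and neither had enough counts to be tested.

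Secreted regulators were represented almost entirely by Dkk4, an antagonist that binds Lrp5 and Lrp6. Dkk4 had 18 and 36 counts among the control libraries against 30 for clone A and 24 for clone B, or 289, 348, 346 and 272 CPM. These values overlapped, with a log2 fold change of -0.06 and a 95% interval from -0.83 to 0.71. Similar to Wnt2b, Dkk4 had a mean of only 4 in the authors' table, and its counts were 1758 times those anticipated. No level of Dkk4 mRNA can be read from them. The nearest coding gene is Polb, which does not overlap Dkk4 and had 1 count per library. Sfrp4, a soluble Wnt-binding protein, had 0 counts in both controls and 4 in each clone, with a mean of 166 in the authors' table. It overlaps Nme8, which had 0 counts throughout. With the controls set at 3 counts, the mean of the clones was 1.19-fold higher, their own counts being taken as exact. Its 46.2 and 45.3 CPM in clones A and B lay under the 48.1 CPM that 3 counts correspond to in control 1. Against control 1 alone there was thus no rise. In the fit without filter its log2 fold change was 5.02 ± 2.23 (estimate ± standard error, adjusted p = 0.508 in edgeR's quasi-likelihood test). Sfrp5 had 0 and 3 counts in controls 1 and 2 against 0 and 2 for the clones. Rspo1, which enhances Wnt signals, had 1 count in clone A and none elsewhere. The 7 genes Dkk1, Dkk2, Dkk3, Rspo2, Rspo3, Sfrp1 and Sfrp2 had 0 counts throughout, and their means in the authors' table were at most 1. When the excess members were left out, secreted regulators had 0 counts in both controls and 5 and 4 counts in clones A and B.

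Receptors as a sum did not separate the groups. The 11 receptor genes with a row summed to 497 and 454 CPM for the control libraries, whereas the clones gave 589 (A) and 487 CPM (B), a log2 ratio of 0.18, with an overlap between control 1 and clone B. Fzd2 had 15 and 17 counts in controls 1 and 2 against 10 for each clone, or 240 and 164 CPM against 115 and 113 CPM. Both clones were below both controls, but the log2 fold change of -0.78 ± 0.53 (estimate ± standard error, 95% interval from -1.90 to 0.33) did not pass the test (adjusted p = 0.564 in edgeR's quasi-likelihood test). Fzd1 had 3 and 19 counts in controls 1 and 2 against 15 and 14 for the clones, or 48.1, 184, 173 and 158 CPM. Control 1 alone lay low, and the groups overlapped, with a log2 fold change of 0.40 and an interval from -0.85 to 1.65. Its sign hung on that library, since it was -0.17 without control 1.

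The co-receptors had too few counts for the test. Lrp5 had 3 and 4 counts among the control libraries against 15 for clone A and 9 for clone B, or 48.1 and 38.6 CPM against 173 and 102 CPM. Both clones were thus above both controls. When genes were not filtered, Lrp5 had a log2 fold change of 1.68 ± 0.78 (estimate ± standard error, adjusted p = 0.570 in edgeR's quasi-likelihood test). Lrp6, its close relative, had 6 and 4 counts in controls 1 and 2 against 10 and 6 for the clones, and its groups overlapped. In the same fit Lrp6 had a log2 fold change of 0.56 ± 0.80 (estimate ± standard error), of the same sign as that of Lrp5. A difference between Lrp5 and Lrp6 in their response was not tested. The remaining Frizzled genes were sparse. Fzd3 had 1 and 2 counts in controls 1 and 2 against 0 and 1 for the clones. Fzd5 had 3 and 0 against 1 and 0, and Fzd9 had 0 and 1 against 0 and 3. Fzd4, Fzd6, Fzd8 and Fzd10 had 0 counts in all libraries. The ubiquitin ligase Rnf43, which removes Frizzled receptors from the cell surface, had 1 count each in control 2 and clone A.

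**Figure D2:**
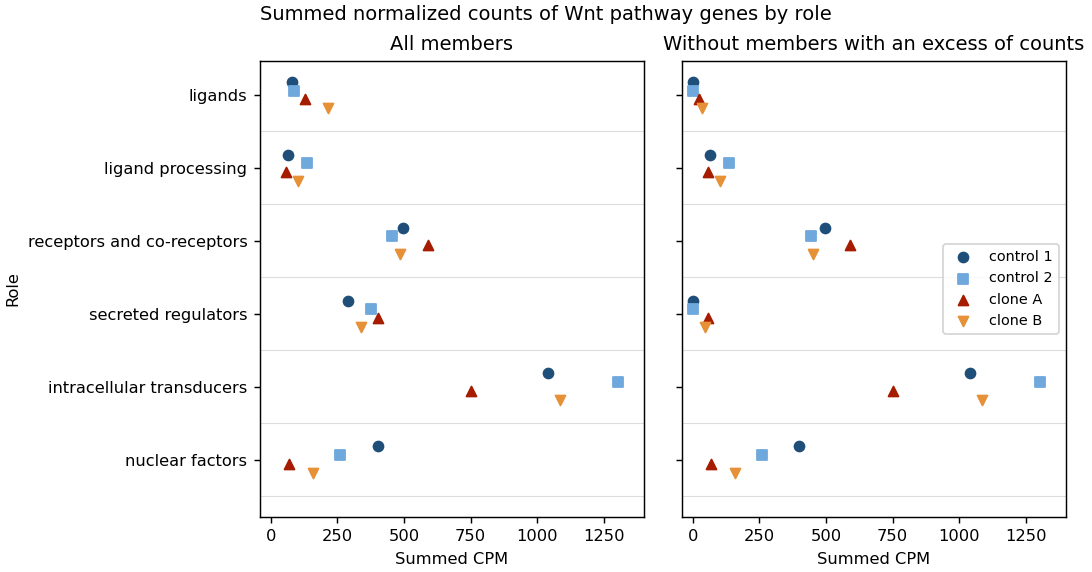
Summed normalized counts (CPM, x axis) per role (y axis) for each of the 4 libraries, for all members with a row and without the members with an excess of counts. Intracellular transducers hold the largest sums, from 750 to 1304 CPM. Ligands and secreted regulators drop to 0 in both controls once the excess members are left out. Clones A and B then keep only 2 and 3 counts of ligands and 5 and 4 counts of secreted regulators.

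All 7 intracellular transducers had at least 10 counts, and 4 could be tested. None of them passed. Their CPM summed to 1042 and 1304 for the control libraries, whereas the clones gave 750 (A) and 1086 (B), with a log2 ratio of -0.35. Apc, a scaffold of the complex that degrades β-catenin, had 25 and 45 counts in controls 1 and 2 against 24 and 45 for the clones. Its log2 fold change was -0.09 with an interval from -0.84 to 0.65. The related Apc2, listed as ENSRNOG00000033791, had 12 and 21 counts among the control libraries against 7 for clone A and 11 for clone B. In CPM these were 192 and 203 against 80.8 and 125, so that both clones lay below both controls. The log2 fold change of Apc2 was -0.94 (standard error 0.54, 95% interval from -2.08 to 0.20) and did not pass the test (adjusted p = 0.476 in edgeR's quasi-likelihood test). As Apc2 overlaps a coding gene on the opposite strand in GRCr8, its counts are uncertain.

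Axin2, a scaffold whose gene is a widely used readout of β-catenin activity, had 14 and 34 counts among the control libraries against 13 for clone A and 16 for clone B. These were 224 and 329 CPM against 150 and 181 CPM, or 276 ± 73.6 CPM in the controls and 166 ± 22.0 CPM in the clones (SD, n = 2 each), with no overlap. The log2 fold change was -0.77 (standard error 0.43, 95% interval from -1.67 to 0.14), which did not pass the test (adjusted p = 0.449 in edgeR's quasi-likelihood test). Without control 1 it passed the unadjusted criterion, and without control 2 the log2 fold change was -0.46. Axin1, which fulfils the same scaffold function, had 2 and 3 counts in controls 1 and 2 against 6 and 7 for the clones. Its 32.1 and 29.0 CPM in the controls were below the 69.2 and 79.2 CPM in the clones. In the fit without filter its log2 fold change was 1.28, with a 95% interval from -0.67 to 3.22 (adjusted p = 0.895 in edgeR).

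The Dishevelled genes, whose products relay the signal from Frizzled receptors, could be tested for Dvl2 alone, which did not pass. Dvl2 had 7 and 22 counts among the control libraries against 8 for clone A and 5 for clone B, or 112 and 213 CPM against 92.3 and 56.6 CPM. Both clones were lower, with a log2 fold change of -1.16 ± 0.63 (estimate ± standard error, adjusted p = 0.431 in edgeR's quasi-likelihood test). Without control 1 the value was -1.52 and passed the unadjusted criterion, and without control 2 Dvl2 had too few counts to be fitted. Dvl2 had no mean in the authors' table, so that an excess of counts could not be checked for it. Its neighbour Acadvl, on the opposite strand, had between 88 and 167 counts per library. The authors' mean for Acadvl was 633, of which the median gene would give 0.384% per library, so that Acadvl itself had an excess. Dvl3 had 1 count in each control and 5 in each clone, with a log2 fold change of 2.12 in the fit without filter and a 95% interval from -0.49 to 4.73 (adjusted p = 0.866 in edgeR). Dvl1 had 4 and 9 counts in controls 1 and 2 against 2 and 7 for the clones, with overlap. It overlaps Tas1r3 on the opposite strand, which had 8 to 16 counts per library despite an authors' mean of 0.

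Among the nuclear factors, Lef1 alone had enough counts to be tested, and it passed the unadjusted test. Tcf7l1 and Tcf7l2 were not tested, so that the change cannot be called particular to Lef1. Lef1, listed as ENSRNOG00000010121, encodes a DNA-binding partner of β-catenin. It had 15 and 19 counts in controls 1 and 2, whereas clone A had 0 and clone B 6. In CPM the control libraries reached 240 and 184, compared with 0 and 67.9 for the clones, which is a mean of 212 ± 40.2 against 34.0 ± 48.0 (SD, n = 2 each). Both clones were below both controls, and the mean of the clones was 16.0% of that of the controls. The log2 fold change was -2.56 (standard error 0.81, 95% interval from -4.26 to -0.86), with an adjusted p = 0.0952 in edgeR's quasi-likelihood test. Lef1 therefore met the criterion of a 2-fold change at an unadjusted p of 0.05, but not after adjustment over all 2438 tested genes. Its adjusted p was 0.0419 in edgeR without a filter, where the spread was taken from all genes together, and 0.358 with DESeq2. The size of the decrease hung on single clones, with a log2 fold change of -1.59 without clone A and of -7.15 without clone B, the latter fitted with clone A at 0 counts. Without control 2 it was -2.78 and no longer passed the unadjusted test. Clone A, which had 0 counts of Sox10, had 0 counts of Lef1, and clone B, with 14 counts of Sox10, had 6 counts of Lef1. A relation between Sox10 and Lef1 over the clones was not tested, and 2 clones cannot show one. Because the RNA came from whole cultures, fewer cells with Lef1 and less Lef1 mRNA per cell cannot be told apart.

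Tcf7l1 had 6 and 2 counts among the control libraries against 2 for clone A and 1 for clone B. Control 1 alone lay higher, and the groups overlapped. Tcf7l2, the Tcf7 family member linked to oligodendrocyte differentiation, had 4 and 6 counts in controls 1 and 2 against 4 and 7 for the clones. Its log2 fold change in the fit without filter was 0.07 (standard error 0.88), so that changes of 2-fold in either direction were within its error. The 3 nuclear factors with a row summed to 401 and 261 CPM for the control libraries, whereas the clones gave 69.2 (A) and 158 CPM (B), a log2 ratio of -1.54 that rested mainly on Lef1.

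**Figure D3:**
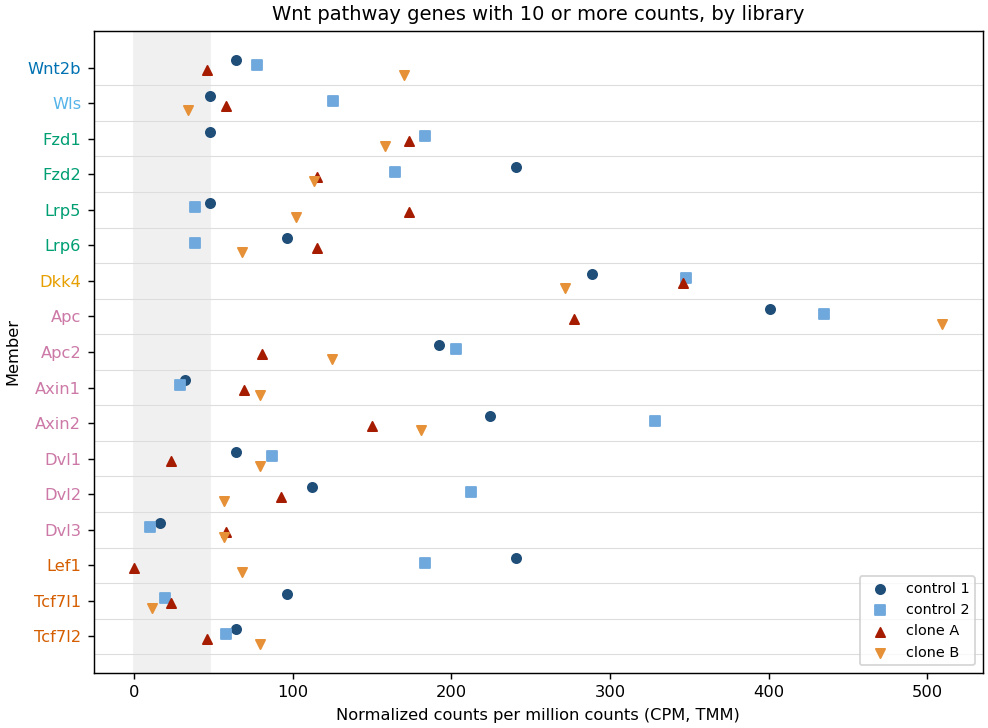
Normalized CPM (x axis) of the 17 members with 10 or more counts (y axis), coloured by role as in the plot of counts against the authors' mean, with 1 symbol per library. The grey band reaches to 48.1 CPM, the value of 3 counts in the shallowest library. For Lef1, Apc2, Axin2, Dvl2 and Fzd2 both clones lie left of both controls, and for Lrp5, Axin1 and Dvl3 they lie right of them.

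Over all members, 8 had enough counts to be tested. Of these, 7 had a negative log2 fold change, with a median of -0.77 against -0.01 over all 2438 tested genes. Among the 7 were Dkk4 and Apc, at -0.06 and -0.09, whose signs changed with a library left out, and without Dkk4 there were 6 of 7 with a median of -0.78. Those 6 include Dvl2, for which an excess of counts could not be checked. These 8 passed a filter on counts and do not stand for all 58 members. By the criterion of 2-fold and an unadjusted p of 0.05, Lef1 alone was lower, which is 12.5% of the tested members, while 6.97% of all tested genes were lower. No tested member was higher, with 4.63% among all genes. After adjustment in edgeR, 0 of the 8 members and 3.61% of all tested genes were called, and DESeq2 also gave 0 members. When genes were not filtered, 30 members were fitted. Lef1 was lower (3.28% of 10024 genes) and Lrp5 and Sfrp4 were higher (2.94% of 10024 genes) by the unadjusted criterion. Of the 20 members with 5 counts or more, 5 had both clones below both controls, or 25.0%, as had 18.4% of 7704 genes in the series. Another 4 of the 20 members had both clones above both controls, as had 20.1% of these genes. The counts of members without overlap were thus close to what the series as a whole gave.

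**Figure D4:**
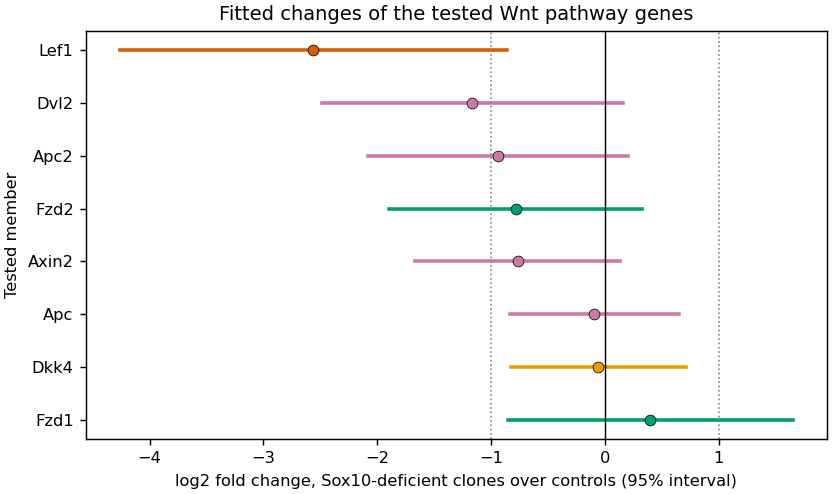
Fitted log2 fold change of Sox10-deficient clones over controls (x axis, points) with its 95% interval (lines) for the 8 tested members (y axis). Dotted lines mark a change of 2-fold. The interval of Lef1, from -4.26 to -0.86, is the single one that lies on the lower side of 0.

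To see the members in the wider pathway, 94 further genes in 5 lists were examined, of which 85 had a row and 26 could be tested. By the unadjusted criterion 2 were lower and 1 was higher, which is 7.69% and 3.85% of the tested genes against 6.97% and 4.63% of all tested genes, and their median log2 fold change was -0.11. Among 19 other regulators outside the cell or at the receptor, 3 could be tested and 2 were lower by the criterion that 6.97% of all tested genes met, which over 3 genes says little about the list. Lgr4, a receptor for R-spondins, had 10 and 14 counts among the control libraries against 4 for clone A and 2 for clone B, with a log2 fold change of -2.05 ± 0.82 (estimate ± standard error, adjusted p = 0.222 in edgeR's quasi-likelihood test). Gpc4, a glypican of the cell surface that binds Wnt proteins, had 26 and 35 counts in controls 1 and 2 against 14 and 10 for the clones, with a log2 fold change of -1.43 ± 0.42 (estimate ± standard error, adjusted p = 0.0688 in the same test of edgeR). For each of them both clones lay below both controls, as they did for 18.4% of 7704 genes with 5 counts or more. Since both genes were picked by the criterion, this adds no support.

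Of 20 partners of β-catenin and its degradation complex, 7 were tested and none passed. Ctnnb1, which encodes β-catenin and had the most counts in this list, had 38 and 60 counts in controls 1 and 2 against 48 and 28 for the clones, with a log2 fold change of -0.45 (95% interval from -1.13 to 0.24). Of 13 nuclear cofactors, 3 were tested and none passed. Bcl9l, a β-catenin cofactor and the member of this list with the most counts, had 31 and 15 against 34 and 12 counts. In the branch that acts without β-catenin, 7 of 22 genes were tested and none passed. Fuz, a planar polarity gene that had the most counts in this list, had 18 and 45 against 67 and 49 counts. These were 28.8 times those anticipated from the authors' mean. Prickle1 and Mapk8, also tested, had 2181 and 10.1 times the anticipated counts. All of these were kept among the tested genes, so that shares and the median over the lists include genes with an excess.

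Of 20 common target genes of β-catenin, 6 were tested. Ccnd1, the cell cycle regulator cyclin D1 and the target with the most counts, had 96 and 131 counts in controls 1 and 2 against 172 and 145 for the clones, with a log2 fold change of 0.38 (95% interval from -0.15 to 0.91). Myc had 5 and 17 counts against 17 and 17. Cd44, an adhesion receptor, had 43 and 96 counts against 40 and 48, with a log2 fold change of -0.70 (adjusted p = 0.243 in edgeR). Sox9, a SoxE gene like Sox10, was the tested target that rose, with 0 and 2 counts in controls 1 and 2 against 30 and 18 for the clones. Its log2 fold change was 4.37 ± 0.82 (estimate ± standard error, adjusted p = 0.00425 in edgeR's quasi-likelihood test). Of the 14 targets that were not tested, Nkd2 was lower (5 and 20 counts against 0 and 0, adjusted p = 0.00131 in edgeR without a filter) and Twist1 was higher (0 and 0 against 14 and 5 counts, adjusted p = 0.0139 in edgeR without a filter). Sox9 was 1 of 6 tested targets (16.7%), against 4.63% of all tested genes that were higher. Nkd2 and Twist1 were picked after their values were seen. Without a filter, 3.28% of 10024 genes were lower and 2.94% higher by the unadjusted criterion. These few genes therefore give no direction for the list.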

How the data were processed

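RNA-Seq was analysed from 2 control libraries and 2 Sox10-deficient clones of OLN93 cells. The authors deposited raw counts per gene symbol and library, obtained from reads mapped to rat genome rn5 (Rnor_5.0) with STAR 2.5.1 and counted with HTSeq, without normalization. The strand option is not given in the sources used here. The authors also deposited a table per Ensembl gene from DESeq2, of which only the mean count, rounded and treated as a score, was used. Its fold changes, standard errors, Wald statistics and p-values hold the authors' own comparison and were not used.

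Counts were tested over all genes with edgeR 4.0.16 in R 4.3.3 (filterByExpr, TMM, glmQLFit and glmQLFTest), using a model of condition alone. Standard errors were derived from the F statistic, and adjustment followed Benjamini and Hochberg over 2438 genes. The labels call the controls biological replicates and the methods call them clones, and p-values measure only the spread between these samples. edgeR shares this spread over genes. In the fits without a filter, without control 1, without clone A and without clone B, intervals had the width of a normal distribution. The spread there came from all genes together, whereas the main fit also used that of the gene itself. Calls gained or lost in those fits cannot be told apart from this difference. Alternatives were DESeq2 1.42.0, its size factors, library totals, omission of the filter, a minimum of 10 counts per library, the replicate number as a block and leaving out each library. Genes named are members that were tested, had at least 10 counts, had 5 or more counts without overlap, or are candidates of the study (Apc2, Wnt7a), and in other lists those called and the one with the most counts. Other members, Myc, Cd44, Nkd2, Twist1, Prickle1, Mapk8 and neighbouring genes were named after their values were seen. Members and lists were chosen with earlier results of these data known. Promoter windows and neighbours came from RefSeq on GRCr8, in which 41 members matched. Counts were not divided by gene length, so that levels of different genes were not compared. The depth of the deposited counts limits members with few counts, and floors cover counting error only.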

Additional observations from a re-analysis of the deposited data

Results flagged for a closer look

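Of the members with values in the authors' table of means alone, 2 had a mean above 0. Fzd7, a Frizzled receptor, had an authors' mean normalized count of 192, and Tcf7, a DNA-binding partner of β-catenin, had one of 188. Both were singled out because this table was outside the comparison of libraries, and neither has values per library here. Their means are on the authors' scale, of which a library held a median of 0.384%, and cannot be set against deposited counts. The other 3 such members, Rspo4, Wnt2 and Znrf3, had a mean of 0.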

How the results depend on the processing

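The log2 fold change of Lef1 stayed negative in every fit, with a range from -7.15 to -1.59 when each library was left out in turn, but it no longer passed an unadjusted p of 0.05 without control 2 (-2.78) and was not tested with at least 10 counts in every library. The number of members lower was 1, and 0 with that minimum. It ranged from 0 to 3 when libraries were left out, the 3 being Axin2, Dvl2 and Lef1 without control 1. The number of members higher was 0, and 2 without a filter. The number of members called after adjustment was 0, and 1 without a filter, and from 0 to 1 when libraries were left out, the 1 being Lef1 without clone B. Of other pathway genes 3 passed, 6 without a filter, 1 with at least 10 counts in every library, 2 with DESeq2 and from 4 to 5 with a library left out. The minimum lowers the number of genes that can be tested. Sox10 had an adjusted p above 0.05 with DESeq2 (log2 fold change -2.74) and with the replicate block (-2.82), and ranged from -8.51 to -1.75 when libraries were left out. The cause was not tested. The block joined control 1 with clone A and control 2 with clone B after their numbers, which are not known to mark pairs (correlation of deviations 0.12), and changed no count of members called, with 1 lower, 0 higher and 0 after adjustment. With single libraries left out, signs reversed for Apc (-0.59 to 0.29, positive without clone A), Dkk4 (-0.23 to 0.11, positive without control 2, at 0.075, and without clone B) and Fzd1 (-0.17 to 1.73, negative without control 1). Scaling by DESeq2's size factors or library totals changed no call among members. With DESeq2's size factors or library totals, log2 ratios of sums by role moved by less than the spread between libraries. The same held without excess members, which could be given for receptors only. With a library left out, that comparison could not fail, because the spread came from the same libraries. The ratio of ligand processing then ranged from -0.79 to 0.32, against -0.32 with all libraries. That of secreted regulators ranged from -0.02 to 0.37, against 0.16. The sums without excess members, the marker sums without Sox10 or Mog, and the tally without Dkk4 were added after seeing the data.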

Other observations

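Some pathway genes outside the rule for named genes, chosen after their values were seen, were too sparse for the filter. Nkd2 and Twist1 are from the list of β-catenin targets. Nkd2, a feedback inhibitor that binds Dishevelled proteins, had 5 and 20 counts in controls 1 and 2 but none in either clone. With the clones set at 3 counts, it was 3.99-fold lower (2.34-fold from control 1 alone), the controls' counts being taken as exact. In the fit without a filter its adjusted p was 0.00131 in edgeR's quasi-likelihood test. Twist1, a mesenchymal transcription factor, had no count in either control but 14 (clone A) and 5 (clone B). With the controls set at 3 counts, it was 2.83-fold higher (1.47-fold from clone B alone), the clones' counts being taken as exact. Its adjusted p was 0.0139 in the same fit of edgeR. Gsk3b, a kinase of the complex that degrades β-catenin, had 1 and 3 counts in controls 1 and 2 against 10 and 6 for the clones, and it did not pass in that fit (adjusted p = 0.721 in edgeR). Notum, which inactivates Wnt proteins, had 7 and 0 counts in controls 1 and 2 but none in either clone, so that control 1 held all of its counts.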
